A study of Mus musculus with 23 samples.

Results

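CTCF is a zinc finger protein that binds DNA and, with cohesin, anchors chromatin loops, and it also contacts RNA. Zinc finger 1 is one of the parts of CTCF that have been linked to RNA binding. In iCLIP2, UV light joins a protein to the RNA it touches, the protein is pulled down, and reverse transcription stops next to the joined nucleotide, so that read starts mark crosslinked bases. Uridines are the bases that UV joins to protein most readily, and a sample made without UV shows the read starts that arise in other ways.

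The comparison described here is between RNA recovered with zinc finger 1 mutant CTCF (ΔZF1) after UV and RNA recovered without UV (noXL), in mouse embryonic stem cells (ESCs). Its members are the genes with at least 20 called sites on their own strand in both lists together, which were 5013 of the 11371 genes with a site in either list and of the 13608 genes with a site in any of the 6 lists of the series. The groups hold 4 ΔZF1 and 4 noXL libraries of the 23 in the series. Both come from E14 cells with a CTCF-AID2 degron, in which 1 µM 5-Ph-IAA removes endogenous CTCF and 1 µg/mL doxycycline induces a Flag-tagged rescue protein, each for 24 hours, before an anti-Flag pulldown from nuclei. The ΔZF1 line carries the doxycycline-inducible CTCF-ZF1 mutant rescue and received 400 mJ/cm2 of UV at 254 nm. The noXL libraries were not crosslinked and came from the line with the CTCF-WT rescue, so that the effect of UV and the difference between the lines cannot be told apart in any comparison of ΔZF1 with noXL.

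The authors merged the libraries of each group before calling sites, and each group is 1 list. The lists therefore carry no replicate error, and conditions could not be tested against each other. A range after a value is a 95% Wilson interval, or for a ratio one converted from it, and speaks for counting error alone. Read depth is unknown from the site lists, although deeper libraries give more sites. A site count also rises with the amount of an RNA, and less RNA per cell and fewer cells making it cannot be told apart in pooled material.

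The label of the cells was checked first. Sites in ΔZF1 and noXL, in that order, numbered 19 and 6 on Pou5f1, 39 and 21 on Nanog, 263 and 158 on Esrrb, 47 and 18 on Zfp42, 175 and 88 on Tfcp2l1, 39 and 23 on Sall4, and 8 and 7 on Sox2, all of them stem cell regulators. The neural markers Sox1, Pax6, Nes, Hes5, Zic1 and Map2 had 0 sites in both lists, while Ncam1 had 21 and 9, Tubb3 8 and 1 and Zic2 7 and 0, and Dnmt3b, of the same list of formative and neural markers, 12 and 8. The endoderm markers Gata4, Gata6, Sox17, Foxa2 and Sox7, the trophoblast markers Cdx2, Eomes, Elf5 and Hand1, and the 2-cell-like markers Zscan4c, Zscan4d and Zfp352 had 0 sites in both lists. Sites were present on the endoderm marker Lama1, a laminin chain, with 58 and 71, and on the trophoblast markers Tfap2c, with 23 and 22, and Tead4, with 5 and 1. The lists as a whole held 728 and 408 sites for naive pluripotency, 48 and 18 for formative and neural markers, 58 and 73 for endoderm and 28 and 25 for trophoblast.

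The sequences below show where the strongest calls lay, as 21-nt windows of the mm10 genome in the sense of the RNA, with the called base in capitals. The first set holds the highest-scoring ΔZF1 site without a noXL site within 5 nt on RNAs picked from the 12 highest named below, and in Lin28a, a regulator of let-7 processing. Some of the 12 with higher ratios than Lama5 are not shown. In these the called base was A in Celsr1, G in Nbdy, Armcx4, Peg3 and Hmces, and U in Arl5b.
Dnah8, chr17:30758398-30758418, plus strand, coding exon: aucgcagacaGgugugcacug
Gm44748, chr7:41164234-41164254, minus strand, intron: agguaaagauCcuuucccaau
Tpd52, chr3:8981761-8981781, minus strand, intron: uugaugaguuUcaguagggcc
4932438A13Rik, chr3:37036819-37036839, plus strand, coding exon: cauuaaucaaUauaucuggua
Lama5, chr2:180198941-180198961, minus strand, coding exon: ccuuggcuauUuccacuuccc
Lin28a, chr4:134018747-134018767, minus strand, 5′ UTR: cggggccacgGgcucagcaga
The second set compares, on the 4 RNAs with most ΔZF1 sites, the highest-scoring ΔZF1 site away from noXL sites with the highest-scoring noXL site away from ΔZF1 sites.
Kat6b in ΔZF1, chr14:21668738-21668758, plus strand, coding exon: gaggaggaggGagaacgagaa
Kat6b in noXL, chr14:21519958-21519978, plus strand, intron: gcccugaaugCuuuaugcaga
Trip12 in ΔZF1, chr1:84838182-84838202, minus strand, intron: acgaagguuuUaagacccagu
Trip12 in noXL, chr1:84749148-84749168, minus strand, coding exon: uuucuucuccAguaaguugau
Huwe1 in ΔZF1, chrX:151803433-151803453, plus strand, 5′ UTR: gacgggcuggGcucaguuuuu
Huwe1 in noXL, chrX:151815630-151815650, plus strand, intron: uuccacaauaAugaaguuucc
Ankrd11 in ΔZF1, chr8:123026933-123026953, minus strand, intron: gugaggccuuUuuuagaugua
Ankrd11 in noXL, chr8:122925808-122925828, minus strand, intron: ucucucauugAccuggaacug
The third set holds the highest-scoring noXL sites of RNAs that stood among the lowest in ΔZF1.
Wwox in noXL, chr8:114443155-114443175, plus strand, intron: agccugguaaGgggaagccuc
Mtmr3 in noXL, chr11:4481216-4481236, minus strand, 3′ UTR: ugacgugcucCaugcucucug
Hormad2 in noXL, chr11:4370069-4370089, minus strand, intron: caacugcuguGggcauucauu
Over the 79 genes of the naming rule for which both kinds of window could be read, the called base was a uridine in 42 ΔZF1 windows, or 53.2%, and in 17 noXL windows, or 21.5%.

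The ΔZF1 list held 231636 sites and the noXL list 158968, a ratio of 1.46 (1.45 to 1.47). The lists differed in length by 72668 sites, and the difference at uridines, 67700 sites, equalled 93.2% of that. This is a net value of 2 unscaled lists. The uridine difference equalled 38.6% of the whole difference in 5′ UTRs and 163.5% in introns, where ΔZF1 held fewer sites at other bases. On chromosome 11 the whole difference was -650 sites. At uridines the ΔZF1 list held 112661 sites and the noXL list 44961, a ratio of 2.51 (2.48 to 2.53), whereas at the other bases the ratio was 1.04 (1.04 to 1.05). Adenosine took the opposite course, with 15.8% of ΔZF1 sites and 28.3% of noXL sites. When only sites with a score of 3.02 or more were kept, which is the median score over the series, the ratio of list lengths was 1.07.

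The larger uridine share of ΔZF1 lay at and next to the site. Uridine made up 48.6% of bases at the ΔZF1 site, 41.2% at the base before it, 32.8% at the second base before it and 30.6% at the base after it. In noXL the same 4 positions held 28.3%, 26.3%, 28.5% and 23.4%. Farther away, from 20 to 4 nt upstream, the lists differed by less than 1 percentage point at each position. Downstream the ΔZF1 share was the smaller one from the third base on, with 19.5% against 22.1% at the fifth base after the site and 25.4% against 27.3% at the base after that. Of all triplets centred on the site, UUU differed most, with 9.93% of ΔZF1 sites and 2.65% of noXL sites, a ratio of 3.75. UUC followed with a ratio of 3.27, UUG with 2.81 and UUA with 2.30, and the lowest triplet was CAG with 0.387. In the wild-type list (ESC WT) UUU made up 15.3% of sites and uridine 59.9%, so that the mutant stood between wild type and control.

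**Figure D1:**
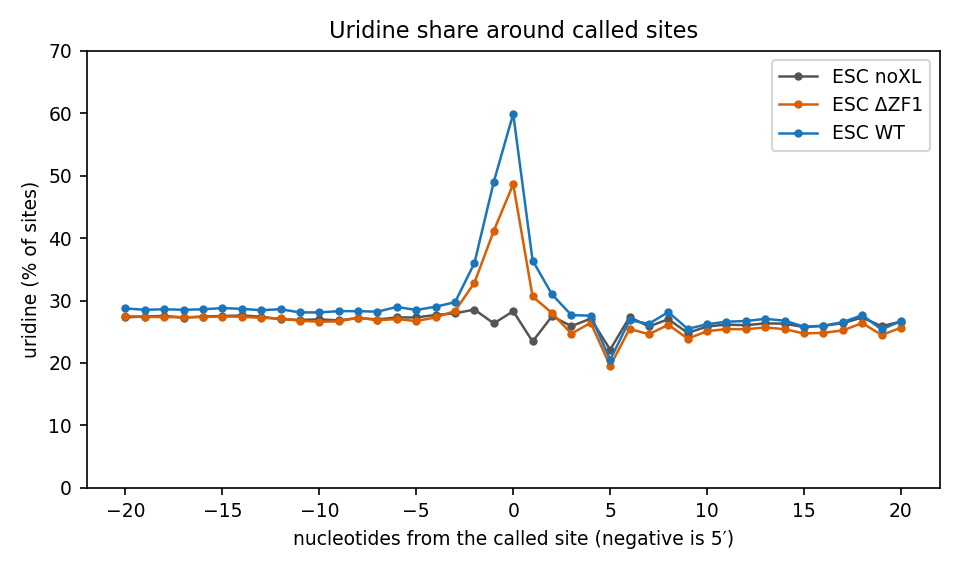
Uridine share (y axis, % of sites) at each position from 20 nt upstream to 20 nt downstream of the called site (x axis, nucleotides) in the 3 ESC lists, each a line with 1 point per position. ΔZF1 peaks at 48.6% at the site, between WT at 59.9% and noXL at 28.3%, and the 3 lines run close together away from the site.

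The uridine surplus was present in every part of a gene and was largest in exons. In coding exons ΔZF1 exceeded noXL 3.25 times at uridines (3.19 to 3.32) and 1.11 times at other bases (1.10 to 1.13). In 3′ UTRs the ratios were 3.03 (2.94 to 3.12) and 0.980 (0.957 to 1.00), and in 5′ UTRs 2.59 (2.46 to 2.72) and 1.75 (1.70 to 1.80). In introns they were 1.92 (1.89 to 1.95) and 0.837 (0.826 to 0.848), so that the intronic sites at other bases were fewer than in the control. Introns accordingly held 34.9% of ΔZF1 sites and 43.3% of noXL sites, coding exons 35.6% and 31.9%, 3′ UTRs 14.0% and 12.6%, and 5′ UTRs 7.93% and 5.94%. In 3′ UTRs the called base was a uridine in 58.4% of ΔZF1 sites (57.9 to 59.0), against 31.3% of noXL sites (30.6 to 31.9). In 5′ UTRs, which are rich in G and C, it was 30.5% (29.9 to 31.2) against 22.9% (22.1 to 23.8).

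**Figure D2:**
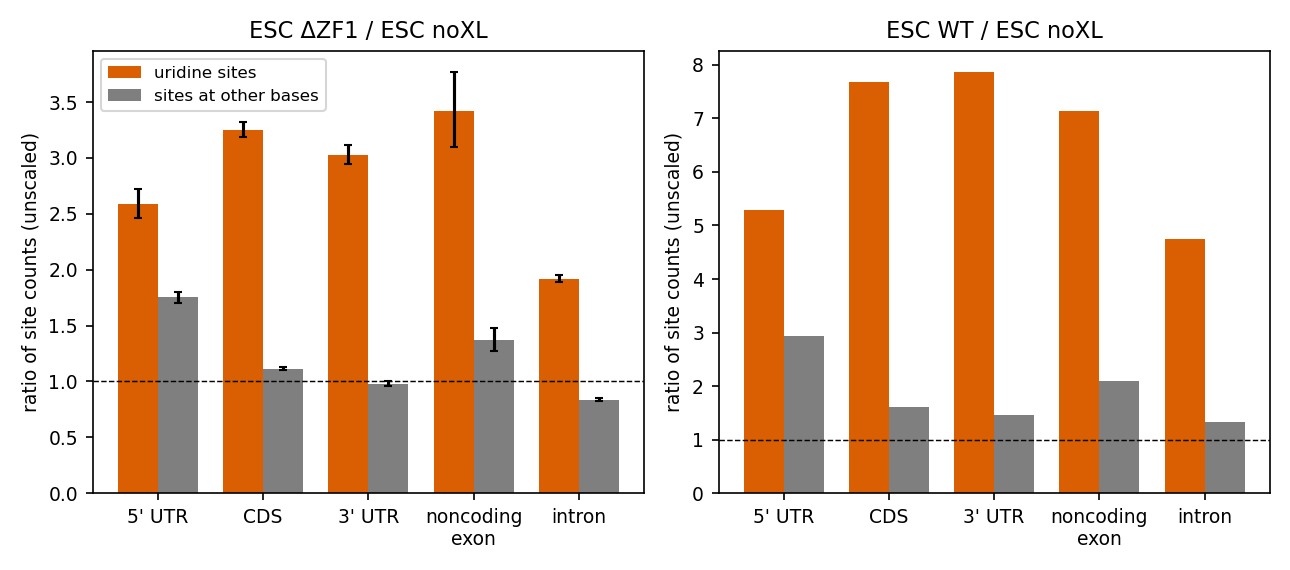
Ratio of site counts to noXL, without scaling (y axis), at uridines and at other bases in 5 gene parts (x axis), for ΔZF1 on the left with 95% intervals and for WT on the right. At uridines ΔZF1 stands 1.92 to 3.42 times above noXL, while at other bases the coding exon, 3′ UTR and intron bars lie near the dashed line at 1.

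Few positions were called in both lists. Of the ΔZF1 sites 90.3% had no noXL site within 5 nt, and these were at a uridine in 50.02% of cases (49.8 to 50.2). The 9.68% of ΔZF1 sites next to a noXL site were at a uridine in 35.7% of cases (35.1 to 36.3), had a median score of 5.80 against 2.56 for the rest, and lay in introns in 22.0% of cases against 36.3%. ΔZF1 sites close to a WT site but not to a noXL site numbered 45393, and 57.4% of them (56.96 to 57.9) were uridines. A further 163813 ΔZF1 sites lay near neither, and 48.0% of those (47.7 to 48.2) were uridines.

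Sites per gene are given below as counts and as the scaled log2 ratio, which is the log2 of ΔZF1 over noXL sites with a pseudocount of 1 after division by the 217770 and 150821 sites in genes, a scaling of 0.53 on the log2 scale. A ratio of 0 thus means that a gene kept the share it has in the control, and a gene can gain sites in number and still stand below 0. Before scaling, 4128 of the 5013 genes, or 82.3%, had more ΔZF1 than noXL sites. After scaling the median was 0.04, with quartiles at -0.34 and 0.47, and 394 genes (7.86%) stood at 1 or above and 329 (6.56%) at -1 or below. The genes just outside these limits lay at 0.997 and -0.999, and those just inside at 1.001 and -1.004. For 533 genes the interval of the ratio lay above 0 and for 488 below 0, and for 30 it lay above 1 and for 58 below -1.

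**Figure D3:**
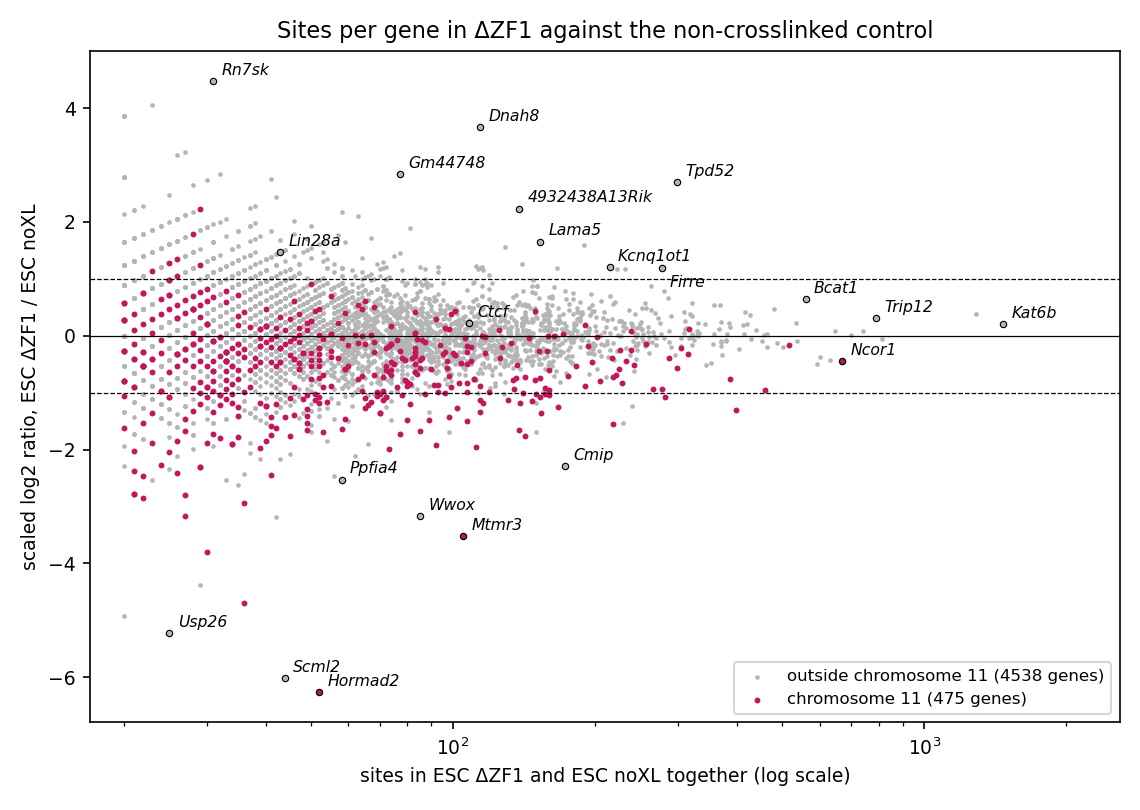
Scaled log2 ratio of ΔZF1 to noXL sites (y axis) against the sites in both lists together (x axis, log scale) for 5013 genes, with the 475 genes of chromosome 11 in colour and dashed lines at 1 and -1. Dnah8, Gm44748 and Tpd52 stand far above the other genes with as many sites, and the chromosome 11 genes lie mostly below 0, with Hormad2 and Mtmr3 among the lowest.

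Chromosome 11 was separate from the rest. It held 475 of the genes compared, of which 117 (24.6%) stood at -1 or below and 7 (1.47%) at 1 or above, with a median of -0.46. Elsewhere 387 of 4538 genes (8.53%) stood at 1 or above and 212 (4.67%) at -1 or below, with a median of 0.09. The medians of the other 19 chromosomes with at least 20 genes ran from -0.01 to 0.25. Chromosome 11 thus made up 9.48% of the genes compared, 35.6% of those at the lower limit and 1.78% of those at the upper one. The low ratio ran along the whole chromosome. In steps of 10 Mb the ratio of ΔZF1 to noXL sites, without scaling, ran from 0.811 between 30 and 40 Mb to 1.15 between 40 and 50 Mb, against 1.46 to 1.66 for each of the other 19 chromosomes with at least 20 genes. Chromosome Y, with 1 gene compared, held 349 and 107 sites.

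The bases on chromosome 11 showed the same contrast as elsewhere. Uridine made up 47.7% of its ΔZF1 sites (47.0 to 48.4) and 28.6% of its noXL sites (27.9 to 29.2), against 48.7% and 28.2% outside it. Of the 393 chromosome 11 genes with at least 10 sites in each list, 358 (91.1%) had a larger uridine share in ΔZF1. Site numbers, however, were lower at both kinds of base, with ratios of 1.62 at uridines and 0.708 at other bases, against 2.63 and 1.09 outside. In the WT list chromosome 11 held 12.4% of sites, as in noXL with 12.4%, against 8.26% in ΔZF1. The share on chromosome 11 thus differed between the ΔZF1 list and both lists of the WT rescue line.

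**Figure D4:**
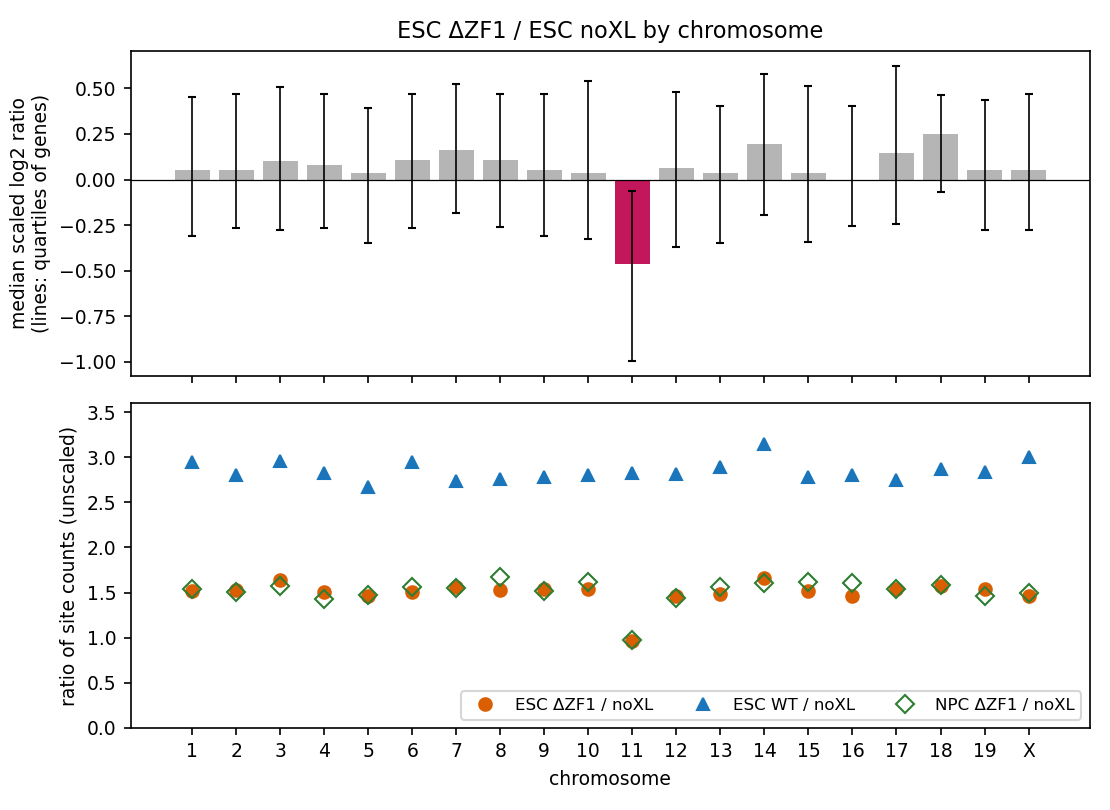
Top, median scaled log2 ratio of ΔZF1 to noXL by chromosome with the quartiles of its genes as lines. Bottom, ratio of site counts without scaling for ESC ΔZF1, ESC WT and NPC ΔZF1, each to the noXL list of its cell type. Chromosome 11 has a median of -0.46 and a ratio of 0.967 for ESC ΔZF1, while ESC WT on it stands at 2.83 as on the other chromosomes.

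Among genes with at least 50 sites, at most 20% of them shared with another gene, the 12 highest outside chromosome 11 were mostly coding. They included genes of a laminin and a polarity cadherin, an imprinted gene and 1 long noncoding RNA. Rn7sk (4.47), Rragb (4.05) and Mars2 (3.86), with fewer sites and 0 in noXL, stood higher than any of them. Dnah8, a dynein heavy chain of motile cilia on chromosome 17 from 30624354 to 30877365, held 109 sites in ΔZF1, 5 in noXL and 2 in WT, a scaled log2 ratio of 3.67 (2.66 to 5.17). Its ΔZF1 sites were spread over 47 of the 1-kb steps of the gene, 87 lay in exons and 22 in introns, and 40 were uridines. The control sites fell in 2 steps only.

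Gm44748, a long noncoding RNA on chromosome 7 from 41128646 to 41284220, held 71, 6 and 2 sites in the same order, a ratio of 2.83 (1.86 to 4.20). All 71 ΔZF1 sites lay outside annotated exons, and 39 of them were uridines against 1 of the 6 control sites. Tpd52, a protein of vesicle traffic on chromosome 3 from 8925593 to 9004723, held 271 sites in ΔZF1, 28 in noXL and 57 in WT, a ratio of 2.70 (2.19 to 3.30). Introns carried the difference, with 252 ΔZF1 and 20 noXL sites against 19 and 8 in exons, and 268 of the 271 ΔZF1 sites had no control site within 5 nt. Uridine made up 53.9% of its ΔZF1 sites (47.9 to 59.7) and 35.7% of its noXL sites (20.7 to 54.2). Over both strands within 1 Mb on either side of these 3 genes the scaled log2 ratio was -0.27 for Dnah8, -0.32 for Gm44748 and -0.18 for Tpd52, and over the 12 highest genes it ran from -0.64 for 4932438A13Rik to 0.74 for Nbdy, below the ratio of the gene itself in each. Around the 8 lowest genes of the next paragraphs it ran from -0.89 for Cdyl2 to 0.51 for Zfand3.

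Another 6 of the 12 highest were mostly exonic. 4932438A13Rik, which encodes a bridge-like lipid transfer protein, held 121 sites in ΔZF1, 17 in noXL and 163 in WT (2.23, with an interval of 1.58 to 3.03), and 118 of the 121 were exonic. Lama5, a laminin chain of basement membranes, held 126, 27 and 47 sites (1.65, 1.10 to 2.29), of which 121 ΔZF1 sites were exonic, and uridine made up 42.1% of ΔZF1 sites (33.8 to 50.8) against 14.8% (5.92 to 32.5) of noXL sites. Peg3, a paternally expressed imprinted zinc finger gene, held 69, 12 and 28 sites (1.90, 1.12 to 2.86). The others of this kind were Celsr1, a cadherin of planar cell polarity, with 51, 7 and 12 sites (2.17), Armcx4, with 43, 7 and 23 (1.93), and Arl5b, a small GTPase of the Golgi, with 49, 10 and 46 (1.65).

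The remaining 3 were mostly intronic. Nbdy, a microprotein of the mRNA decapping machinery, held 55 sites in ΔZF1, 8 in noXL and 44 in WT (2.11), with 41 of the 55 in introns. Hmces, a shield of abasic sites in DNA, held 56, 11 and 23 (1.72, but 0.91 with uridine sites alone), with 44 in introns. Cdx1, a homeobox transcription factor, held 48, 9 and 26 (1.76), with 35 in introns, and 16 of its 48 ΔZF1 sites but 0 of its 9 control sites were uridines. In 11 of the 12 genes ΔZF1 held more sites than WT, the exception being 4932438A13Rik, although the WT list was the longer by far. Over all 5013 genes this was so for 404, or 8.06%, among the 394 higher genes for 128, or 32.5%, and among the 329 lower genes for 9, or 2.74%. These sets were chosen by their ΔZF1 counts, which enter the comparison with WT too, so that the shares are a description only.

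**Figure D5:**
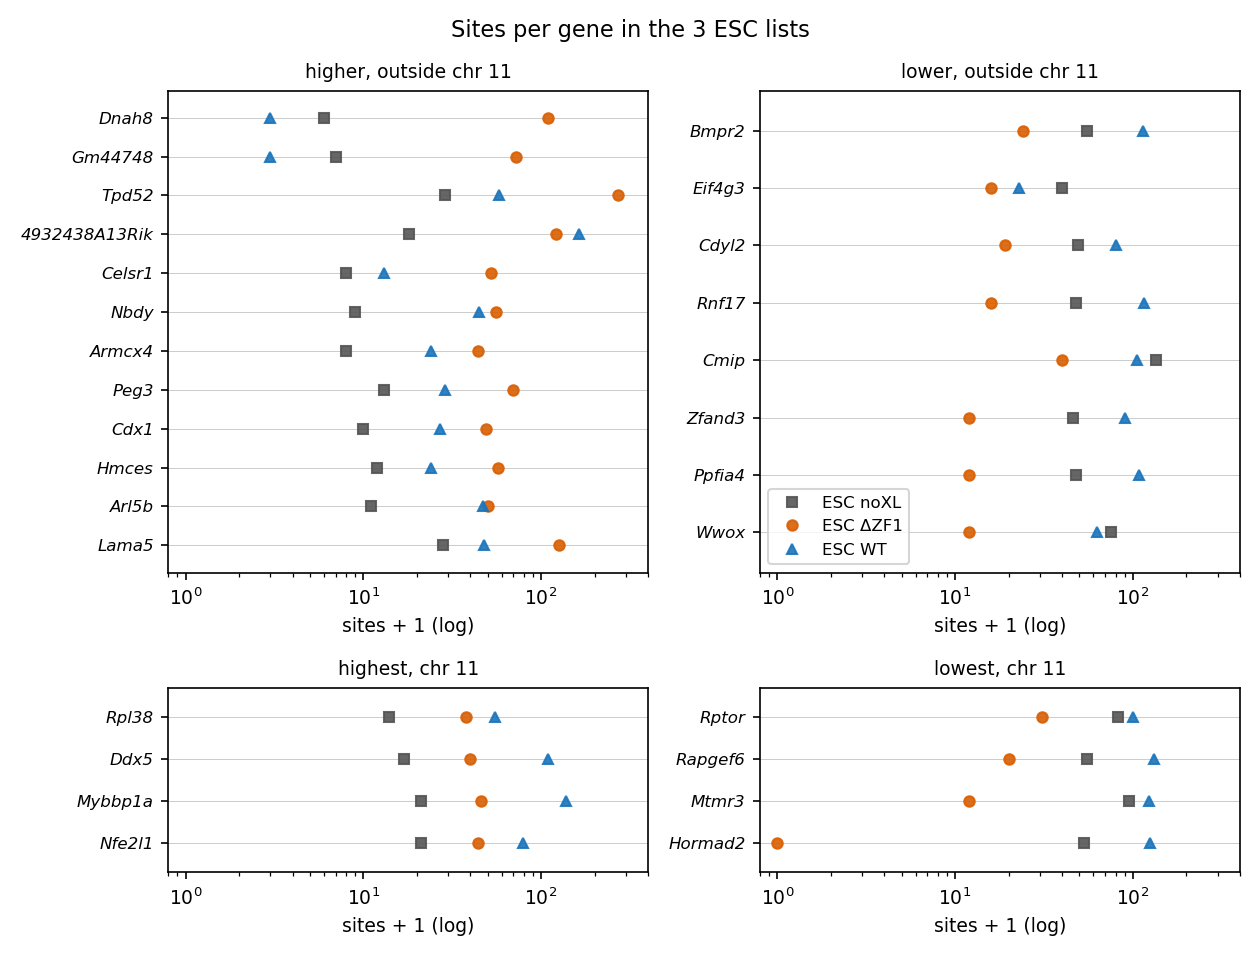
Sites per gene plus 1 (x axis, log scale) in ESC noXL, ESC ΔZF1 and ESC WT for the 12 highest and 8 lowest genes outside chromosome 11 and the 4 highest and 4 lowest on it. All were ranked among genes with at least 50 sites, at most 20% of them shared. In the upper left panel the ΔZF1 points lie right of the WT points in 11 of 12 genes, and in both panels of lower genes the ΔZF1 points lie left of all others.

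Of the 8 lowest genes outside chromosome 11 under the same limits of 50 sites and 20% shared, 6 had mainly intronic sites in the control. Scml2, Usp26 and Ttc28, with fewer sites and 0 in ΔZF1, stood lower than these. Wwox, an oxidoreductase gene on chromosome 8 from 114439655 to 115352708, held 11 sites in ΔZF1, 74 in noXL and 62 in WT, a ratio of -3.17 (-4.18 to -2.38), and 71 of its 74 noXL sites but 4 of its 11 ΔZF1 sites were intronic. Cmip, also on chromosome 8, from 117257064 to 117459430, held 39, 134 and 104 sites (-2.28, -2.82 to -1.80). Its exons held 29 ΔZF1 and 22 noXL sites and its introns 10 and 112, so that the exonic log2 ratio was -0.36 and the intronic one -3.59. Cdyl2, a chromodomain gene near Cmip, held 18, 48 and 79 sites (-1.90).

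Zfand3, a zinc finger gene, and Rnf17, a germ cell RING and Tudor protein, showed the same division. Zfand3 held 11, 45 and 90 sites (-2.47), with 42 of the 45 noXL sites and 1 of the 11 ΔZF1 sites in introns. Rnf17 held 15, 47 and 114 sites (-2.11), with 31 of 47 and 1 of 15 in introns. Ppfia4, a liprin, held 11, 47 and 107 sites (-2.53). Eif4g3, a translation initiation factor, held 15, 39 and 22 sites (-1.85), with 12 ΔZF1 and 28 noXL sites in exons and 3 and 11 in introns. Bmpr2, a BMP receptor, held 23, 54 and 113 (-1.73), almost all of them in exons, where it had 23 ΔZF1 and 53 noXL sites.

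On chromosome 11 the lowest gene was Hormad2, a protein of the meiotic chromosome axis, with 0 sites in ΔZF1, 52 in noXL and 124 in WT, at least 17.3-fold lower before scaling against a floor of 3 sites over the list. Its neighbour Mtmr3, a phosphoinositide phosphatase, held 11, 94 and 122 sites (-3.51, -4.51 to -2.74). Rapgef6 held 19, 54 and 131 (-1.99) and Rptor, a subunit of the growth regulator mTORC1, 30, 82 and 99 (-1.95), and in both the intronic sites were fewest, 1 against 33 and 4 against 40. The highest chromosome 11 genes with at least 50 sites did not reach 1. They were Rpl38 with 37, 13 and 54 sites (0.91, 0.08 to 1.88), Ddx5 with 39, 16 and 108 (0.70, -0.07 to 1.58), Mybbp1a with 45, 20 and 137 (0.60, -0.11 to 1.39) and Nfe2l1 with 43, 20 and 78 (0.54, -0.18 to 1.33).

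Few genes lacked sites in 1 list altogether. Of the 5013 genes 10 did, of which 6 had 0 sites in noXL and 4 had 0 in ΔZF1. Among the 6, Repin1, Gm44965 and Gm45021 overlap and hold the same 20 sites. Rn7sk, the small nuclear RNA that holds the elongation kinase P-TEFb inactive, was singled out after its values were seen. It held 31 sites in ΔZF1, 0 in noXL and 41 in WT, at least 10.3-fold higher than the control before scaling, and has near-identical copies in the genome that make its count uncertain. Besides Hormad2, the genes without a ΔZF1 site were Scml2, a Polycomb-related protein of the germline, with 44 noXL and 129 WT sites, Usp26, a testis ubiquitin protease, with 25 and 77, and Ttc28, with 20 and 3. The first 2 of these lie on chromosome X.

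Of the 8 genes with most ΔZF1 sites, 6 lay between the quartiles of all genes, Bcat1 lay above them and Ncor1 below. Kat6b, a histone acetyltransferase, held 918 sites in ΔZF1, 552 in noXL and 1817 in WT, a ratio of 0.20 (0.05 to 0.36). Trip12 and Huwe1, ubiquitin ligases, held 508, 283 and 1058 (0.31) and 473, 341 and 1161 (-0.06). Ankrd11, a chromatin regulator, held 449, 294 and 834 (0.08), Pias2, a SUMO ligase, 414, 285 and 794 (0.01), Cnot1, the scaffold of the CCR4-NOT deadenylase, 391, 255 and 831 (0.08), Bcat1, a branched-chain aminotransferase, 388, 172 and 612 (0.64, 0.39 to 0.90), and Ncor1, a corepressor on chromosome 11, 344, 326 and 1045 (-0.45, -0.67 to -0.23).

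These RNAs nevertheless differed from the control in the base under the site. Uridine made up 54.5% of the Kat6b sites in ΔZF1 (51.2 to 57.7) and 32.2% in noXL (28.5 to 36.3), 56.1% and 27.6% of the Trip12 sites, and 55.8% (50.5 to 61.0) and 29.8% (25.1 to 34.9) of the Ncor1 sites. Of the 3950 genes with at least 10 sites in each list, 3674, or 93.0%, had the larger uridine share in ΔZF1, by a median of 21.5 percentage points. The count was 74 of 84 among higher genes (88.1%), with a median of 22.4 points, and 172 of 203 among lower genes (84.7%), with a median of 17.1 points. A larger uridine share over the control was therefore measured in RNAs with high, middle and low site ratios.

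Ctcf, whose protein was replaced, held 68 sites in ΔZF1, 40 in noXL and 109 in WT (0.22, -0.32 to 0.80), of which 33, 16 and 74 were uridines. Exons held 10 ΔZF1 and 8 noXL sites, and the sites do not tell the transgene from the endogenous gene. Podxl and Grb10, coding RNAs that the study followed, had 1, 9 and 8 sites and 3, 9 and 15 sites, too few for comparison.

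The gene groups were read against the median of 0.04 and the shares of 7.86% and 6.56% over all genes. Ribosomal protein genes stood higher, with a median of 0.31 over 48 of 66 genes compared, 37 above 0, 9 at the upper limit (18.8%) and none at the lower one. Rpl11 held 26 sites in ΔZF1, 4 in noXL and 40 in WT (1.90, 0.71 to 3.63), Rplp0 29, 6 and 54 (1.57) and Rps3 37, 9 and 75 (1.396), while Rpl4 was lowest with 20, 24 and 57 (-0.78). These genes have many processed copies, and their counts are uncertain where reads could be split. Over the list uridine made up 55.8% of 1356 ΔZF1 sites and 30.7% of 670 noXL sites. With uridine sites alone the list median was 0.17 over 17 genes, against -0.02 over all genes. Among all compared genes of up to 12263 bases the median was 0.28, with 14.6% at the upper limit. Rpl4 spans 5292 bases and Rpl38 3808, and the part that length plays in this group was not tested. Actin and tubulin genes also had a median of 0.31, over 10 genes, with none past a limit.

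Pluripotency genes had medians above that of all genes. Of the naive pluripotency genes 9 of 14 were compared, with a median of 0.33 and 8 above 0, and Klf4, a stem cell transcription factor, stood at 1.13 with 18 sites in ΔZF1, 5 in noXL and 66 in WT, an interval of -0.06 to 2.69, and at 0.67 with a pseudocount of 5. Of the general pluripotency genes 9 were compared, with a median of 0.21, and 3 stood at the upper limit. They were Lin28a with 35, 8 and 17 sites (1.47), Tdgf1, a Nodal co-receptor, with 42, 12 and 100 (1.196), and Zfp281, a zinc finger factor, with 31, 9 and 52 (1.15). Pou5f1 stood at 0.98 and Dppa4 was lowest at -0.83. With uridine sites alone the median was 0.33 over 7 naive and 0.003 over 6 general pluripotency genes, against -0.02 over all genes.

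Nuclear long noncoding RNAs were divided. Kcnq1ot1, an imprinted antisense RNA that silences its neighbours in cis, held 166 sites in ΔZF1, 49 in noXL and 198 in WT (1.21, 0.77 to 1.69, but 0.88 with higher-scoring sites only), and Firre, an X-linked RNA with repeats that binds nuclear matrix protein, held 213, 64 and 186 (1.19, 0.80 to 1.61). The exons of Firre held 50 ΔZF1 and 31 noXL sites (-0.07) and its introns 163 and 33 (2.04). Tsix held 173, 102 and 329 (0.23), Malat1 8, 7 and 41, and Neat1, the core of paraspeckles, 28, 33 and 85 (-0.76, -1.49 to -0.05). Xist had 0 sites in both lists. Of the 127 compared genes not annotated as protein coding, 23 (18.1%) stood at the upper limit and 7 (5.51%) at the lower one. More than 20% of sites also lay in another gene for 55 of the 127 and for 8 of the 23, and such sites count in both genes. Among 9 host genes of small nucleolar RNAs none reached the upper limit, 1 (Snhg6) reached the lower one and the median was -0.21.

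Genes of RNA processing lay close to the middle. Among 25 hnRNP genes none passed a limit and the median was 0.15, from Hnrnpdl with 28 sites in each list (-0.53) to Hnrnph2 with 33 and 12 (0.86). Of 17 splicing factors, which include the SR proteins, 1 passed the lower limit, Luc7l3 on chromosome 11 with 58 and 89 sites (-1.14). Luc7l3 stood inside it with exon sites alone (-0.26) and without scaling (-0.61). Of 21 DEAD and DEAH helicases 1 passed the upper one, Ddx54 with 32 sites in ΔZF1, 5 in noXL and 51 in WT (1.93, 0.83 to 3.46). Nucleolar proteins had a median of -0.01 over 29 genes and Nol8 past the upper limit with 22 and 6 sites (1.19, but 0.77 with a pseudocount of 5), and among 27 translation factors none passed the upper limit and 2 the lower one, Eif4g3 and Eif2s3x. Of 21 chaperones Hspa14 passed the upper limit (1.15), but 48.7% of its sites also lay in another gene and 4 alternatives put it below the limit, to 0.64 at the lowest.

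Chromatin remodellers stood below the median of all genes, though less so with uridine sites alone, with -0.08 over 24 genes against -0.02 over all genes. Among 28 of them 8 were above 0 and the median was -0.24, none reached the upper limit, and the 2 at the lower one, Chd3 with 3 and 18 sites (-2.78) and Smarce1 with 14 and 27 (-1.43), lie on chromosome 11. Of 16 corepressors, 24 histone acetyltransferases and methyltransferases and 14 cohesin subunits and CTCF partners, none passed a limit, with medians of -0.07, -0.01 and 0.03. Of 14 Polycomb genes Pcgf1 passed the upper limit with 24 and 7 sites (1.11), but not with a pseudocount of 5 (0.74). Replication genes had a median of -0.10, with 5 of 15 above 0, and 2 passed the upper limit, Rrm1, a subunit of ribonucleotide reductase, with 44 and 14 sites (1.05, 0.27 to 1.98), and Rfc1, a clamp loader subunit. Rrm1 fell below the limit under 4 alternatives, to 0.82 at the lowest.

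Of 19 HECT and related ubiquitin ligases 1 passed a limit, Smurf2 on chromosome 11 with 9 and 25 sites (-1.91), and the median was 0.09. Among 7 axon guidance genes the median was -0.19 and 2 were above 0. Both passed the upper limit, Ntn1 with 24 sites in ΔZF1, 4 in noXL and 0 in WT (1.79, 0.59 to 3.52) and Plxnb2 with 62, 15 and 32 (1.45), and Robo1 the lower one with 15 and 25 (-1.23). All 4 compared genes of the germline and X-linked list, Hormad2, Scml2, Usp26 and Tex14, stood at the lower limit, Tex14 with 55 and 99 sites (-1.37), and the other members had at most 4 sites in either list. Hormad2 and Tex14 lie on chromosome 11, where 24.6% of all genes stood that low. The list was chosen with earlier results of these data known, so that its low ratios are a description only. Of dynein genes 2 were compared, Dnah8 and Dync1h1, the latter at -0.11. Replication-dependent histone genes had too few sites for comparison, 31 in ΔZF1 and 32 in noXL over the list, although WT had 179. Single genes were compared among the endoderm markers (Lama1, 58 and 71 sites, -0.82) and the trophoblast markers (Tfap2c, 23 and 22, -0.47), and 2 among formative and neural markers.

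Gene length moved with the ratio. When the genes were divided by length into 5 groups, the median ratio in the shortest group, up to 12263 bases, was 0.28, with 146 of 1003 genes at the upper limit and 19 at the lower one. In the longest group, from 73479 bases, it was -0.18, with 41 and 151 genes. Outside chromosome 11 the median length was 17256 bases among higher genes and 87454 among lower genes.

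The lower genes outside chromosome 11 held 74.98% of their ΔZF1 sites (73.4 to 76.5) but 47.8% of their noXL sites (46.5 to 49.2) in exons. In the higher genes outside chromosome 11 the exon shares were 67.9% (67.1 to 68.7) in ΔZF1 and 68.0% (66.4 to 69.7) in noXL. Over all 5013 genes they were 58.4% and 50.8%. The higher and lower genes were chosen by the same ΔZF1 and noXL counts, so that these shares are a description only. With exon sites alone, 281 of 3956 genes (7.1%) stood at the upper limit and 146 (3.69%) at the lower one. With intron sites alone, 229 of 1823 genes (12.6%) stood at the upper and 246 (13.5%) at the lower limit. The median of the exon ratio ran from 0.08 in the shortest group to -0.10 in the longest, and that of the intron ratio from 0.47 to -0.26. With uridine sites alone, 163 of 2338 genes (6.97%) stood at the upper and 169 (7.23%) at the lower limit.

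Wild-type CTCF against the same noXL list is given beside these values, and the shared control is in both. Of 6208 genes, 504 (8.12%) stood at 1 or above and 410 (6.6%) at -1 or below. The WT ratio was -2.51 for Dnah8, -2.73 for Gm44748, -0.51 for Tpd52, 1.68 for 4932438A13Rik, -0.81 for Celsr1 and -0.73 for Lama5. It was -1.76 for Wwox, -1.87 for Cmip, -0.27 for Hormad2 and -1.14 for Mtmr3. For the ribosomal proteins the WT median was 0.53 over the same genes, for the chromatin remodellers -0.29, for the naive pluripotency genes 0.44 and for the corepressors -0.39.

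The same contrast in neural progenitor cells (NPCs), NPC ΔZF1 against NPC noXL, shares no list with the ESC one. It comes from the same cell lines, as the labels name them, differentiated to NPCs. In the 3293 genes compared in both cell types, 211 (6.41%) stood at 1 or above and 241 (7.32%) at -1 or below in NPCs. Of the 168 genes at the upper limit in ESCs, 28 were also there in NPCs, which is 16.7% of the ESC genes and 13.3% of the 211 NPC genes, while 8 of the 168 stood at the lower limit in NPCs. Of the 185 at the lower limit, 50 were also there in NPCs, 27.0% of the ESC and 20.7% of the NPC genes, and 40 of the 50 lay on chromosome 11, while 6 of the 185 stood at the upper limit in NPCs. Spearman's rho between the ratios was 0.24 over 3293 genes and 0.17 over the 2997 outside chromosome 11, and the genes share lines, annotation and length.

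Tpd52 was high in both cell types, with 74 ΔZF1 and 9 noXL sites in NPCs and an NPC ratio of 2.32. Ddx54 held 22 and 6 sites in NPCs (1.13) and Rrm1 30 and 9 (1.05). Carm1, an arginine methyltransferase chosen after its values were seen, held 155 and 35 sites in ESCs (1.59, 1.09 to 2.14) and 102 and 15 in NPCs (2.10), and in ESCs its introns held 138 ΔZF1 and 17 noXL sites against 17 and 18 in its exons. Of the 12 highest ESC genes outside chromosome 11, the others compared in NPCs had lower ratios there, and the difference between the cell types was not tested. They were chosen by their ESC ratios, so that lower NPC ratios can follow from the choice alone. Lama5 stood at 0.71 with 112 and 45 sites, Nbdy at 0.56 with 41 and 18, Peg3 at 0.50 with 105 and 49, and Arl5b at -0.59 with 14 and 14. 4932438A13Rik stood at 0.04 in NPCs with 73 and 47 sites, Armcx4 at -0.19 with 41 and 31, Dnah8, Gm44748, Celsr1, Cdx1 and Hmces had too few NPC sites for comparison, and Cmip, low in ESCs, held 78 and 30 in NPCs (0.76).

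The median NPC ratio was 0.33 for the higher ESC genes outside chromosome 11 and -0.26 for the lower ones, against 0.02 over all genes compared in both. On chromosome 11 it was -0.54 over 296 genes, and -1.02 over the lower ESC genes of that chromosome, of which 4 of 79 were above 0.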

How the data were processed

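CTCF iCLIP2 sites were compared between 4 crosslinked ΔZF1 and 4 non-crosslinked ESC libraries. Per the study's methods and the submitters' processing notes, reads were trimmed with Flexbar, aligned to mm10 with STAR and reduced to unique molecules with UMI-tools, and libraries of a group were merged before PureCLIP called sites. Versions and read totals were not given in the sources used here. Each deposited value is the PureCLIP score that the authors deposited for a 1-nt site, which is not scaled to depth. Ratios rest on numbers of sites, and the score was used to choose the sequences shown, as a filter in 1 alternative and to describe sites near the control.

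Sites were assigned by strand to GENCODE M21 basic genes on GRCm38, and a site in several genes counted in each. Genes with 20 or more sites in both lists together were compared as log2 ratios scaled to genic sites, with a pseudocount of 1 and limits of 1 and -1. Intervals were Wilson intervals at 95%. The script was tested on simulated data. Sequences were read with pysam 0.24.0, tables were handled in Python 3.11.15 with pandas 2.3.3 and numpy 2.4.6, rank correlations came from scipy 1.17.1, and plots from matplotlib 3.10.9.

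Among genes with 50 or more sites, at most 20% of them shared with another gene, those named are the 12 highest and 8 lowest ratios outside chromosome 11 and the 4 highest and 4 lowest on it. The 8 genes with most ΔZF1 sites, the highest and lowest compared member of each of 27 gene lists, and Ctcf, Podxl and Grb10 are also named. Further list members, the marker genes of the label check and the genes without a site in 1 list were named after their values were seen. Genes and lists were chosen with earlier results of these data known. Alternatives were another pseudocount, site minimum, score minimum and scaling, sites by base, gene part or sharing, runs counted once, and leaving out chromosome 11 or sites near the other list.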

Additional observations from a re-analysis of the deposited data

Results flagged for a closer look

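Lin28a, an RNA-binding protein of stem cells, lay on opposite sides of the control in the cell types. In ESCs it held 35 sites in ΔZF1 and 8 in noXL, a scaled log2 ratio of 1.47 (0.52 to 2.68), and in NPCs 23 and 31, a ratio of -1.002. It was 1 of 14 genes past opposite limits in ESCs and NPCs, of which 8 were higher and 6 lower in ESCs, and the only one among the genes chosen for naming. Each value comes from 1 pooled list per condition, and the difference between the cell types was not tested.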

How the results depend on the processing

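The counts of genes at or above 1 and at or below -1 (394 and 329, with 7 and 117 on chromosome 11) and the chromosome 11 median (-0.46) moved with the settings as follows. With only higher-scoring sites (score of at least 3.02) 191 and 204 genes passed, 74 of the lower ones on chromosome 11, where the median was -0.56. A pseudocount of 5 left 149 higher genes, 2 of them on chromosome 11. A minimum of 50 sites left 69 and 94, of which 0 and 52 lay on chromosome 11, with a median there of -0.56. Without scaling 1259 and 117 genes passed, 41 and 48 on chromosome 11, and the median there turned to 0.067 while that of all genes rose to 0.57. Uridine sites alone gave 163 and 169 (2 and 70 on chromosome 11, median -0.62), and other bases 226 and 219 (4 higher on chromosome 11, median -0.55). Exon sites gave 146 lower genes (12 and 43 on chromosome 11, median -0.26), intron sites 229 higher genes (2 on chromosome 11, median -0.91), and runs counted once left 4 higher genes on chromosome 11. Higher genes made up 54.5% of all genes past a limit, against 36.0% with a pseudocount of 5, 42.3% with 50 sites, 91.5% without scaling and 65.8% in exons. Scaling to genic sites outside chromosome 11 gave 339 higher and 373 lower genes, or 47.6% higher. The ratio of list lengths, 1.46, was 1.07 with higher-scoring sites, 2.51 at uridines, 1.04 at other bases, 1.37 with runs counted once and 1.53 without chromosome 11. The uridine share, 20.4 percentage points larger in ΔZF1, was larger by 20.7 with higher-scoring sites, 22.4 in exons, 19.8 in introns, 20.7 with runs counted once and 21.6 without sites near the other list. For the 81 named genes compared, 764 of 826 values under alternatives stayed within the interval of the ratio, and 62 moved beyond it. Of the named genes past a limit, 8 of 22 higher and 8 of 18 lower ones fell inside it under at least 1 alternative. Among the higher ones these were Tpd52 (0.41) in exons, Hmces (0.91) at uridines, Kcnq1ot1, Nol8, Hspa14, Klf4, Pcgf1 and Rrm1, and among the lower ones Cmip (-0.36), Rnf17 (-0.92), Cdyl2 (-0.85), Rapgef6 (-0.95) and Luc7l3 (-0.26) in exons, and Tex14 (-0.84), Robo1 (-0.70) and Snhg6 (-0.49) without scaling. The sign changed in 30 of the 826, over 14 genes, 0 of which stood past a limit, and among these Kat6b went from 0.20 to -0.02 and Ankrd11 from 0.08 to -0.14 with higher-scoring sites. No paired analysis was possible because libraries were merged before sites were called, so that leaving out single libraries was not possible either. Read depth is unknown, and the causes of these shifts were not tested.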

Other observations

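Mitochondrial sites numbered 72 in ΔZF1 and 53 in noXL, or 0.0310% (0.0246 to 0.0391) and 0.0333% (0.0255 to 0.0435) of each list. Unplaced scaffolds and patches held 265 and 190 sites, or 0.114% and 0.119%. Neither share was larger than in the control.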
